A study of Mus musculus with 8 samples.

Results

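The enzymes that remove superoxide and peroxides were followed here in the kidney of mice in which Nrf2 is active because Keap1 is missing. They are 6 glutathione peroxidases (Gpx1, Gpx2, Gpx3, Gpx4, Gpx7 and Gpx8), catalase (Cat) and 3 superoxide dismutases (Sod1, Sod2 and Sod3). These 10 genes were chosen by name, by their place in this chemistry, from the 19600 genes and unnamed transcripts that could be tested, and each had 1 probe, well above background on all 8 arrays.

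Total RNA of whole kidneys from 8 mice aged 8 weeks was labelled with Cy3 and measured on 1-colour Agilent oligonucleotide arrays, with 1 array a mouse. The 4 NEKO mice (Keap1-/-::Nrf2Flox/Flox::K5-Cre) lack Keap1 in every tissue and lose Nrf2 only where the K5 promoter drives Cre, in squamous epithelium such as the oesophagus. Of the 4 controls, 1 was K1 (Keap1+/-::Nrf2Flox/Flox) and 3 were K1Cre (Keap1+/-::Nrf2Flox/Flox::K5-Cre), so every mouse carried the floxed Nrf2 alleles and every control had only 1 intact copy of Keap1. All were of mixed 129Sv/J and C57BL/6J background. Each group held 2 females and 2 males. The females shared 1 slide and the males another, each with 2 NEKO mice and 2 controls, and an effect of sex cannot be told apart from one of slide. The question was which of these enzymes differ in transcript level between NEKO and control kidneys, and whether that difference is alike in both sexes.

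Superoxide, made by mitochondria and by oxidases, is turned into hydrogen peroxide by the superoxide dismutases. Hydrogen peroxide is then reduced to water by glutathione peroxidases, at the cost of glutathione, or split into water and oxygen by catalase in peroxisomes. Keap1 holds the transcription factor Nrf2 at a low level by steering it to degradation. Nrf2 binds antioxidant response elements and drives genes of glutathione and thioredoxin metabolism, and Gpx2 is among its known targets in other tissues. In the kidney, Gpx3 is made by the proximal tubule and secreted into plasma.

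Signals are given as log2 values relative to the 75th percentile of their own array, so a value of a gene can be set against the same gene on another array but not against another gene. The share of probes well above background ran from 61.7% to 65.7% over the arrays, and none was saturated. Kidney markers were present on all arrays, among them Slc34a1 of the proximal tubule, Umod of the thick ascending limb, Aqp2 of the collecting duct and Nphs1 of podocytes. Keap1 read between 1.77 and 1.92 in controls and between 0.06 and 0.45 in NEKO kidneys, a change of -1.63 ± 0.10 (SE, adjusted p = 0.00459). Where this probe lies relative to the deleted exons was not determined, so it bears on the labels only as a lower signal. Nqo1, a quinone reductase driven by Nrf2, read from 1.24 to 2.46 in controls and from 3.89 to 5.45 in NEKO kidneys. Its change was 2.62 ± 0.43 (SE), which missed an adjusted p under 0.05 in limma (adjusted p = 0.0651).

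The difference between NEKO and control kidneys was uneven over the 10 enzymes. Gpx2 rose 42.1-fold and was the only one of the 10 called in the limma fit at an adjusted p under 0.05, where 0.224% of everything tested was called in either direction and 0.0969% was called higher. At an unadjusted p under 0.05 there were 3 of the 10 (Gpx2, Cat and Sod2), against 18.0% of everything tested. The 4 NEKO values lay wholly outside the 4 control values for 2 of the 10, Gpx2 and Cat, both above, against 9.25% of everything tested. The fitted change was above 0 for 5 enzymes and below 0 for 5. Its median was -0.0025 on the log2 scale, against -0.03 over all tested, and the median size of the change was 0.11 against 0.15 over all tested.

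**Figure D1:**
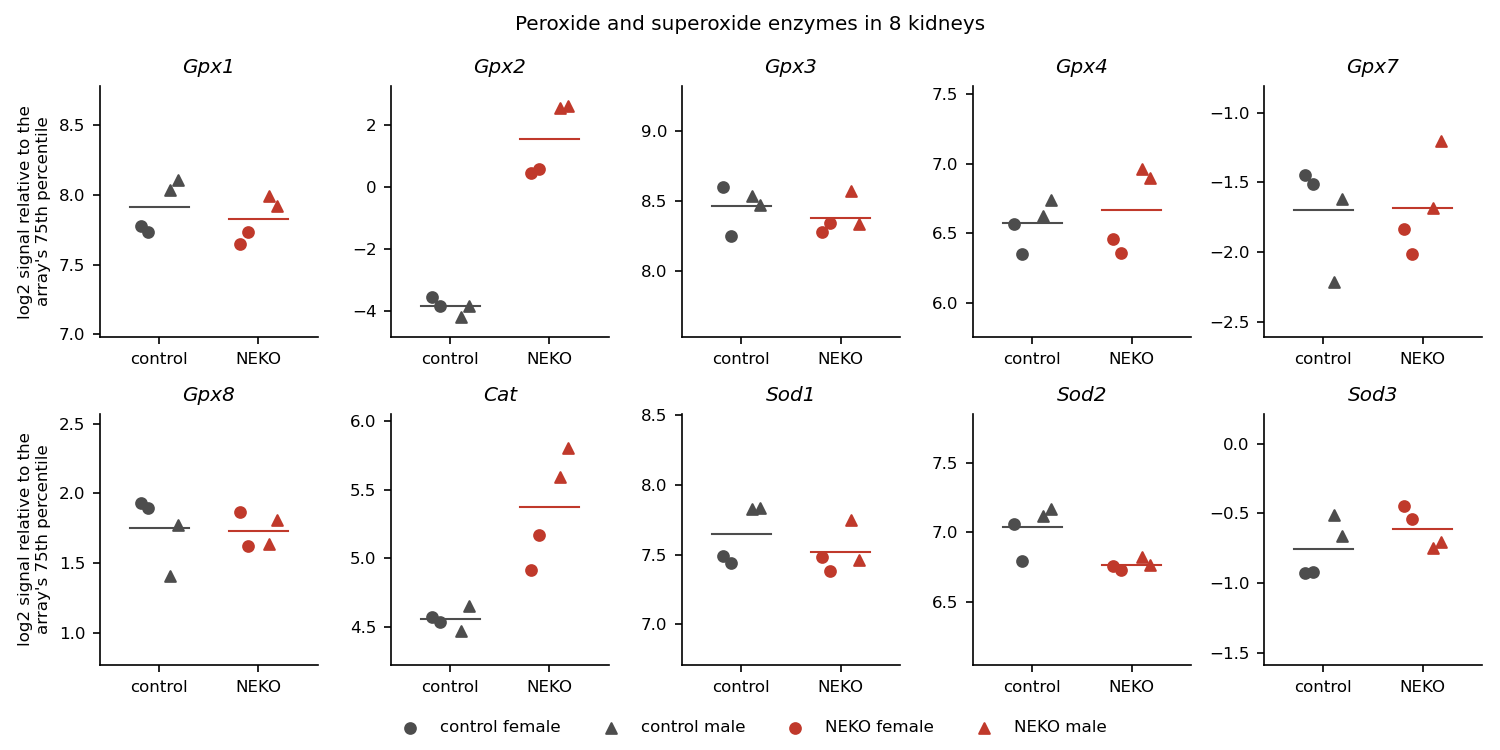
Log2 signal less its array's 75th percentile (y axis, a separate range for each panel) for the 10 enzymes in control (grey) and NEKO (red) kidneys, with circles for females, triangles for males and a line at the mean of each group of 4. Gpx2 and Cat are higher in all 4 NEKO kidneys than in any control, and the groups overlap for the other 8.

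Gpx2 (NM_030677) encodes the glutathione peroxidase best known from the lining of the gut. Control females (replicates 1 and 8) read -3.55 and -3.83, and control males (replicates 4 and 7) read -4.19 and -3.84. NEKO females (replicates 2 and 3) read 0.44 and 0.57, and NEKO males (replicates 5 and 6) read 2.55 and 2.60. The controls lay close together, the NEKO females stood far above them, and the NEKO males stood higher again. The highest control and the lowest NEKO kidney were 3.99 apart on the log2 scale. The fitted change was 5.40 ± 0.46 (SE, n = 4 and 4, 95% interval 4.30 to 6.49, adjusted p = 0.0106), or 42.1-fold with an interval of 19.7-fold to 90.0-fold. The signal was well above background on every control array, so this ratio rests on measured values on both sides.

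The Gpx2 call was lost in 2 of 21 alternatives, while its change stayed between 4.35 and 5.69 in all of them. The 21 include the methods' unpaired comparison judged at its unadjusted p (0.00213 for Gpx2), which is not an adjusted call. The smallest, 4.35, came with another background correction (normexp), where Gpx2 was still called. Without control replicate 7 the change was 5.23 with an adjusted p of 0.0552, and in the methods' unpaired comparison with adjustment it was 5.40 with an adjusted p of 0.306.

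Catalase (Cat, NM_009804), the haem enzyme of peroxisomes, was the other gene with separate groups. Control females read 4.57 and 4.54, and control males read 4.48 and 4.66. NEKO females read 4.91 and 5.17, and NEKO males read 5.60 and 5.80. Every NEKO kidney lay above every control, by 0.26 at the nearest, with the NEKO males above the NEKO females. The change was 0.81 ± 0.15 (SE, n = 4 and 4, 95% interval 0.45 to 1.17), or 1.75-fold, and missed the threshold with an adjusted p of 0.0814. It passed, with an adjusted p of 0.018, when the interaction model's genotype effect was averaged over females and males. No other alternative gave Cat an adjusted p under 0.05. With each mouse left out the adjusted p in limma ran from 0.0914 to 0.229. In the methods' unpaired comparison p was 0.0254 unadjusted and 0.397 adjusted.

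**Figure D2:**
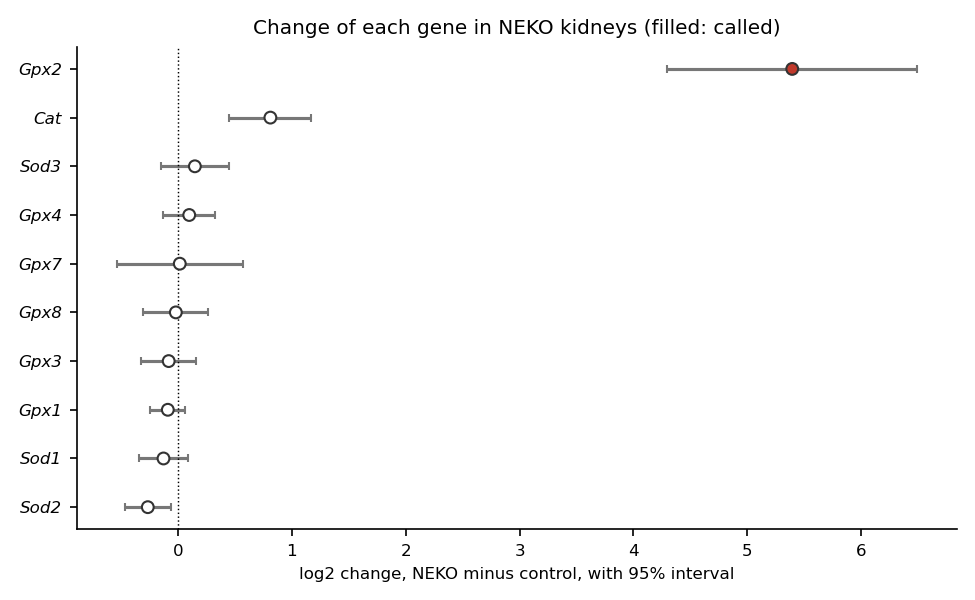
Log2 change of each enzyme, NEKO minus control (x axis), from the model with a sex term over 8 arrays, with its 95% interval and a filled point where called. Gpx2 stands at 5.40 and Cat at 0.81, and the other 8 lie between -0.27 and 0.15.

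Because Gpx2 and Cat are the 2 enzymes with separate groups, the 250 bases before their start sites are shown, from RefSeq on GRCm38.p6, gene strand, 5′ to 3′. Capitals mark the letters CCAAT on either strand (ATTGG where the match is on the other strand), a common promoter element. The Gpx2 window is chr12:76795555-76795804 on the minus strand and the Cat window is chr2:103485154-103485403, also on the minus strand.
Gpx2: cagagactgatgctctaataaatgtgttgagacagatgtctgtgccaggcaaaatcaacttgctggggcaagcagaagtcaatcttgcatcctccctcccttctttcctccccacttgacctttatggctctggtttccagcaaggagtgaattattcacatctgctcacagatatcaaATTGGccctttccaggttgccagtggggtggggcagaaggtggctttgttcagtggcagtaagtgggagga
Cat: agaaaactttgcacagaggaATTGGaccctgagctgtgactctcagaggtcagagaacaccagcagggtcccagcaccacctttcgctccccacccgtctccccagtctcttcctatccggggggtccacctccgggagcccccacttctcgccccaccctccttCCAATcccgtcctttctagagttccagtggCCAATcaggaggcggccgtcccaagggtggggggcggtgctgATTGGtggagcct
The Cat window holds CCAAT at 4 places, which begin 230, 85, 55 and 13 bases before the start, and the Gpx2 window holds it at 1, which begins 71 bases before the start. Of all 32851 promoter windows of this length, 33.8% hold it at least once. Of the 10 enzymes, 9 have an entry among these windows, with 12 windows in all. The letters are in 8 of the 12 windows, and 6 of the 9 enzymes have them in at least 1. Some windows of Gpx4 share bases.

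The core letters of the antioxidant response element, TGACNNNGC with N for any base, were searched on both strands of the same windows, and no match shared a base with CCAAT. They were in neither the Gpx2 nor the Cat window, which says only that these letters are not in those 250 bases. They were in 1 of the 9 enzymes, Sod1, as GCGTGGTCA on the opposite strand, beginning 56 bases before the start. That is 1 of the 12 windows of these enzymes, and of all windows 10.2% hold them.

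The other 5 glutathione peroxidases did not pass the test. Gpx1 (NM_008160) is the selenoenzyme of the cytosol found in most cells. It read 7.78 and 7.73 in control females, 8.04 and 8.11 in control males, 7.65 and 7.73 in NEKO females and 7.99 and 7.92 in NEKO males. The males lay above the females in both groups, and NEKO and control values overlapped. The change was -0.09 ± 0.07 (SE, 95% interval -0.24 to 0.06, adjusted p = 0.486).

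Gpx3 (NM_008161), the plasma enzyme of the proximal tubule, read 8.60 and 8.25 in control females, 8.54 and 8.47 in control males, 8.28 and 8.34 in NEKO females and 8.57 and 8.34 in NEKO males. The 2 control females were the highest and the lowest of all 8, and the groups overlapped. The change was -0.08 ± 0.10 (SE, 95% interval -0.32 to 0.16, adjusted p = 0.685), and its sign turned under quantile normalization, where it was 0.01.

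Gpx4 (NM_001037741), which reduces lipid peroxides in membranes, read 6.57 and 6.35 in control females, 6.62 and 6.74 in control males, 6.46 and 6.36 in NEKO females and 6.96 and 6.89 in NEKO males. Only the NEKO males lay above all controls. The change was 0.10 ± 0.10 (SE, 95% interval -0.13 to 0.33, adjusted p = 0.607).

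Gpx7 and Gpx8 are the peroxidases of the endoplasmic reticulum, with cysteine in place of selenocysteine. Gpx7 (NM_024198) read -1.45 and -1.51 in control females, -2.21 and -1.62 in control males, -1.83 and -2.01 in NEKO females and -1.69 and -1.21 in NEKO males. Gpx8 (NM_027127) read 1.93 and 1.90 in control females, 1.41 and 1.78 in control males, 1.87 and 1.62 in NEKO females and 1.64 and 1.81 in NEKO males. In both genes the groups overlapped and a control male, replicate 4, was the lowest of all 8. The changes were 0.01 ± 0.23 (SE, 95% interval -0.54 to 0.57, adjusted p = 0.98) for Gpx7 and -0.02 ± 0.12 (SE, 95% interval -0.31 to 0.27, adjusted p = 0.945) for Gpx8, and the sign of each turned with 1 mouse left out.

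None of the 3 superoxide dismutases was called. Sod2 (NM_013671), the manganese enzyme of mitochondria, came nearest. It read 7.06 and 6.79 in control females, 7.12 and 7.17 in control males, 6.76 and 6.73 in NEKO females and 6.82 and 6.77 in NEKO males. The NEKO kidneys lay close together, between 6.73 and 6.82, and below 3 of the 4 controls, while the control female of replicate 8 fell among them. The change was -0.27 ± 0.08 (SE, 95% interval -0.47 to -0.07, adjusted p = 0.196), or 0.832-fold.

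Sod1 (NM_011434), the copper and zinc enzyme of the cytosol, read 7.49 and 7.44 in control females, 7.83 and 7.83 in control males, 7.49 and 7.39 in NEKO females and 7.74 and 7.46 in NEKO males. The control males were the highest pair, and the NEKO kidneys overlapped with the controls. The change was -0.13 ± 0.09 (SE, 95% interval -0.34 to 0.09, adjusted p = 0.476).

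Sod3 (NM_011435) is the secreted copper and zinc enzyme that binds to the extracellular matrix. It read -0.93 and -0.92 in control females, -0.51 and -0.66 in control males, -0.44 and -0.54 in NEKO females and -0.75 and -0.70 in NEKO males. The females of NEKO lay above the control females, and the males of NEKO below the control males. The change over both sexes was 0.15 ± 0.13 (SE, 95% interval -0.15 to 0.45, adjusted p = 0.559).

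Within each sex, the difference between NEKO and control kidneys rests on 2 mice against 2, with the spread estimated over all 8 arrays. Gpx2 changed by 4.20 ± 0.16 (SE, adjusted p = 0.00187) in females and by 6.59 ± 0.16 (SE, adjusted p = 0.000191) in males, which is 18.4-fold and 96.5-fold. Cat changed by 0.49 ± 0.14 (SE, adjusted p = 0.451) in females, 1.40-fold, and by 1.13 ± 0.14 (SE, adjusted p = 0.0142) in males, 2.19-fold. Both enzymes were higher in NEKO kidneys in each sex, with the wider gap in males.

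The difference between the sexes was itself tested as an interaction of sex and genotype, and none of the 10 enzymes was called in limma, against 0.0153% of everything tested. At an unadjusted p under 0.05 there were 4 of the 10 (Gpx2, Cat, Gpx7 and Sod3), against 10.5% of everything tested. For Gpx2 the change in males was greater than that in females by 2.39 ± 0.23 (SE, 95% interval 1.84 to 2.95, adjusted p = 0.0625). That value passed with the normexp background correction (2.11, adjusted p = 0.017) and with eBayes run with a trend and robust (2.39, adjusted p = 0.0409). For Cat the excess in males was 0.64 ± 0.20 (SE, 95% interval 0.16 to 1.13, adjusted p = 0.305).

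Gpx7 and Sod3 had effects of opposite sign in the sexes. Gpx7 changed by -0.44 ± 0.24 (SE) in females and 0.47 ± 0.24 (SE) in males, with an adjusted p of 0.419 for the difference. Sod3 changed by 0.43 ± 0.10 (SE) in females and by -0.14 ± 0.10 (SE) in males, with an adjusted p of 0.227 for the difference. Gpx4 and Gpx8 also differed in sign, with changes of -0.05 and -0.17 in females and 0.24 and 0.13 in males. The remaining 4 enzymes, Gpx1, Gpx3, Sod1 and Sod2, were all lower in NEKO kidneys in both sexes, by no more than 0.35.

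**Figure D3:**
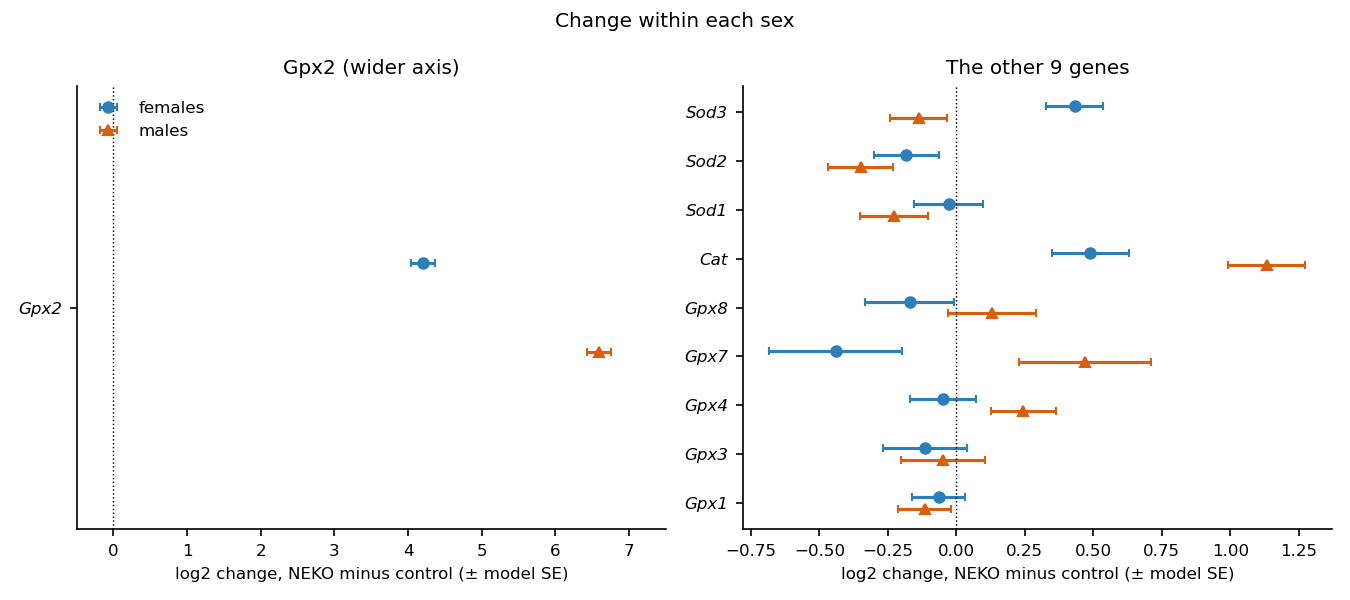
Log2 change, NEKO minus control (x axis), within females (blue circles) and within males (orange triangles), with the model SE as bars and 2 mice a group in each sex. Gpx2 has its own wider axis, from 4.20 in females to 6.59 in males, and Gpx4, Gpx7, Gpx8 and Sod3 lie on opposite sides of 0 in the sexes.

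Males and females, which are also the slides, were compared with genotype in the model. None of the 10 enzymes was called in limma, where 0.786% of everything tested was called, and 3 of the 10 (Gpx1, Gpx4 and Sod1) had an unadjusted p under 0.05, against 21.2% of everything tested. All 3 were higher in males, Gpx1 by 0.29 ± 0.07 (SE, adjusted p = 0.0833), Gpx4 by 0.37 ± 0.10 (SE, adjusted p = 0.104) and Sod1 by 0.27 ± 0.09 (SE, adjusted p = 0.162). Gpx1 passed with eBayes run with a trend and robust, with an adjusted p of 0.0429. The single K1 control, a female without Cre, differed from the K1Cre control female by between -0.35 (Gpx3) and 0.00 (Sod3) on the log2 scale, K1Cre minus K1. With 1 mouse each, this difference has no replicate check. For Gpx2 it was -0.28, against a change of 4.20 between NEKO and control females.

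The enzymes depend on other genes for glutathione, selenium, metals and import, and 7 lists of such genes held 83 genes, of which 74 were tested. In all, 1 was called in limma, and 16 of the 74 (21.6%) had an unadjusted p under 0.05, near the 18.0% of everything tested. These 16 were uneven over the lists, with 5 of 8 tested for glutathione supply and turnover and 7 of 15 for thioredoxin and peroxiredoxin. No other list had more than 2. For 7 of the 74 the NEKO values lay wholly above the controls and for none wholly below, a count near the 9.25% of everything tested whose groups did not overlap in either direction. The median change over the 74 was 0.07, against -0.03 over all tested.

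Glutathione supply and turnover had none called among 8 tested in limma. At an unadjusted p under 0.05 there were 5 of the 8, against 18.0% of everything tested, and the median change was 0.36. The largest was Gsr, glutathione reductase, which returns oxidised glutathione to its reduced form. It read 2.17 and 2.88 in control females, 2.54 and 2.70 in control males, 2.97 and 3.55 in NEKO females and 4.16 and 4.39 in NEKO males. All NEKO values lay above all controls, the nearest by little, and the change was 1.20 ± 0.26 (SE, adjusted p = 0.109). Gclc, the catalytic subunit of the enzyme that starts glutathione synthesis, changed by 0.95 ± 0.37 (SE, adjusted p = 0.246), with a control female (replicate 8, at 5.55) inside the NEKO range. Slc7a11, the cystine carrier, had no kept probe.

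The thioredoxin and peroxiredoxin list, a parallel route for peroxide removal, had 1 called of 15 in limma, where 0.224% of everything tested was called. At an unadjusted p under 0.05 there were 7 of the 15, against 18.0% of everything tested. Txnrd1, the cytosolic thioredoxin reductase and itself a selenoprotein, read 3.65 and 3.80 in control females, 3.75 and 3.97 in control males, 4.53 and 4.88 in NEKO females and 5.33 and 5.62 in NEKO males. It rose by 1.30 ± 0.17 (SE, adjusted p = 0.0487), 2.46-fold, with no overlap. In 21 alternatives, run for it after its value was seen, the change lay between 1.17 and 1.43 and the call held in 8. Among these is the methods' unpaired comparison judged at its unadjusted p (0.00972), which is not an adjusted call. Of the 8 fits that each left out a mouse, the Txnrd1 call held only without NEKO replicate 2 (adjusted p 0.0376 to 0.155). Srxn1, which repairs over-oxidised peroxiredoxins, had a larger change of 1.47 ± 0.28 (SE) that missed the threshold (adjusted p = 0.0814). The NEKO values also lay wholly above the controls for Srxn1, Prdx6 (0.39) and Prdx3 (0.12), the last with an adjusted p of 0.39. With Txnrd1 these were 4 of the 15, against 9.25% of everything tested whose groups did not overlap in either direction.

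Selenoprotein synthesis and selenium supply, which Gpx1, Gpx2, Gpx3 and Gpx4 need, had none called among 11 tested in limma and none at an unadjusted p under 0.05. The largest changes were -0.20 ± 0.15 (SE) for Secisbp2l and 0.17 ± 0.19 (SE) for Sephs2, which makes the selenium donor. The list for copper and manganese supply to the dismutases had none called of 8 and 1 at an unadjusted p under 0.05, Slc39a14, a carrier of manganese and zinc, at -0.57 ± 0.17 (SE, adjusted p = 0.171). Ccs, the copper chaperone of Sod1, changed by -0.12 ± 0.09 (SE). Peroxisome matrix import, by which catalase reaches its compartment, had none called of 10 and 1 at an unadjusted p under 0.05, with 0.22 ± 0.13 (SE) for Pex5, the import receptor, and -0.20 ± 0.10 (SE) for Pex10 as the largest.

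Of 21 tested genes that make superoxide or hydrogen peroxide, none was called in limma and 2 (Aox1 and Maob) had an unadjusted p under 0.05, below the 18.0% of everything tested. Aox1, aldehyde oxidase, read -3.47 and -2.83 in control females, -4.40 and -3.50 in control males, -0.75 and -1.20 in NEKO females and 0.50 and 0.97 in NEKO males. All NEKO values lay above all controls, with the NEKO males highest, and the change was 3.43 ± 0.53 (SE, adjusted p = 0.0627). Maoa, monoamine oxidase A, had the next largest change, 0.83 ± 0.37 (SE, adjusted p = 0.289), with no overlap between the groups. Maob, its mitochondrial relative, changed by 0.62 ± 0.20 (SE, adjusted p = 0.191). Gpx6, a further glutathione peroxidase, changed by -0.86 ± 0.42 (SE, adjusted p = 0.33), and Gpx5 had no kept probe.

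**Figure D4:**
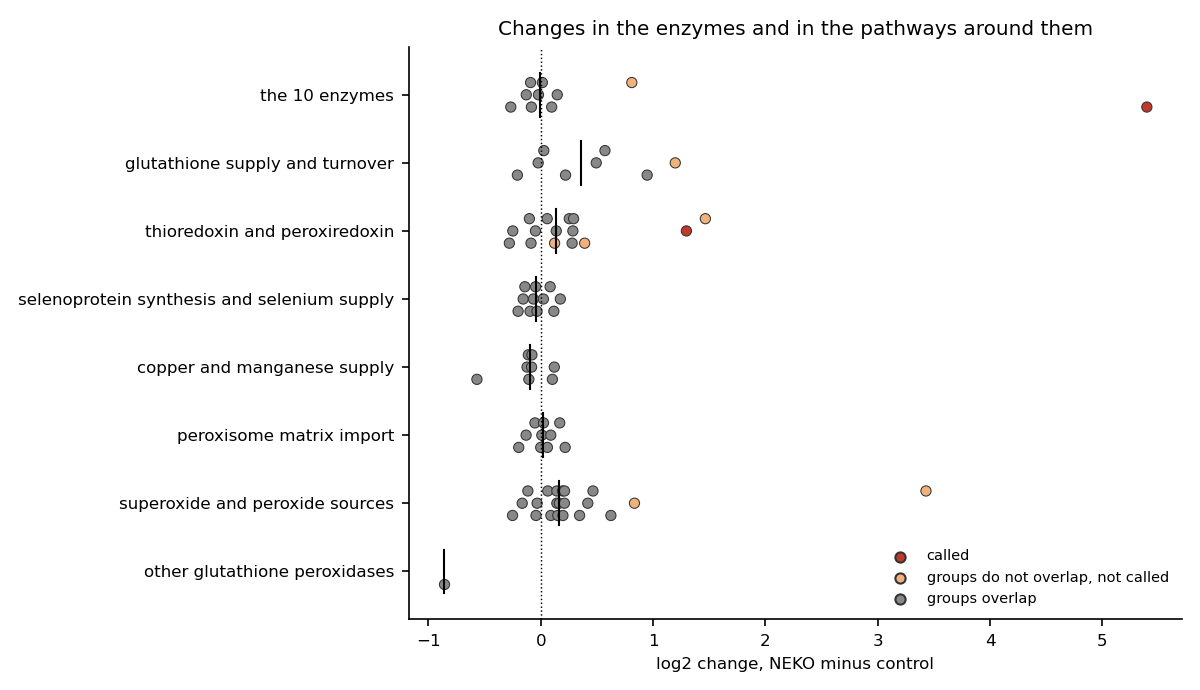
Log2 change, NEKO minus control (x axis), for the 10 enzymes and the tested genes of 7 lists around them (rows), with a point a gene, a line at the median of each row, red where called, orange where NEKO and control values do not overlap and grey where they do. The called genes are Gpx2 at 5.40 and Txnrd1 at 1.30.

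Marker genes of kidney and other cell types were compared between the groups as well, and in bulk tissue fewer cells of a type and less RNA per cell cannot be told apart. Of 13 marker lists with 60 tested genes, none was called in limma, and 18 (30.0%) had an unadjusted p under 0.05, against 18.0% of everything tested. Summed signals below are linear, in multiples of the array's 75th percentile.

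The urothelium list, all 7 tested, had a median change of 1.22, led by Krt5 at 1.85 ± 0.47 (SE, adjusted p = 0.139) and Upk2 at 1.80 ± 0.57 (SE, adjusted p = 0.195), while Upk1a lay wholly below the controls. Its sum ran from 1.28 to 3.08 in controls and from 2.58 to 6.47 in NEKO kidneys. The neutrophil list, with 3 of 6 tested, ran from 0.224 to 0.529 in controls and from 0.353 to 6.67 in NEKO kidneys. Its 2 most changed genes were S100a8, well above background on 1 control array and 3 NEKO arrays, and S100a9, which read from -2.69 to -1.18 in controls and 2.59, 0.48, -1.08 and -1.86 in NEKO replicates 5, 6, 3 and 2. The other tested gene, Mpo, changed by 0.05 ± 0.19 (SE, adjusted p = 0.911 in limma). The highest neutrophil sum is that of NEKO replicate 5, and Ly6g, Elane and Csf3r had no kept probe. The fibroblast list, all 6 tested, had a median change of 0.60, with 0.84 ± 0.41 (SE) for Lum and 0.73 ± 0.56 (SE) for Col1a1, and sums of 22.2 to 41.4 in controls and 27.6 to 82.6 in NEKO kidneys.

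Markers of the distal segments had changes below 0, none of them called. All 5 collecting duct markers had a fitted change below 0, from -0.91 to -0.10, and the median of -0.76 is that of Scnn1b. Atp6v1g3 changed by -0.90 ± 0.14 (SE, adjusted p = 0.064) and lay wholly below the controls. Slc4a1, which is also in the erythroid list, changed by -0.91 ± 0.61 (SE) and overlapped. NEKO replicate 5, at 2.34, lay above all controls, and NEKO replicate 6 was at -0.86. The smallest changes were -0.22 ± 0.12 (SE) for Aqp2 and -0.10 ± 0.11 (SE) for Aqp3. The sum of the 5 markers ran from 46.3 to 58.0 in controls and from 32.7 to 48.4 in NEKO kidneys. The distal convoluted tubule pair changed by -1.12 ± 0.40 (SE, adjusted p = 0.219) for Pvalb and -0.57 ± 0.19 (SE, adjusted p = 0.203) for Slc12a3, with sums of 6.74 to 9.93 in controls and 3.57 to 9.91 in NEKO kidneys. The proximal tubule list, where Gpx3 is made, had changes of both signs around a median of 0.08, with -1.46 ± 0.70 (SE) for Slc7a13, 0.97 ± 0.23 (SE, adjusted p = 0.123) for Slc13a3, wholly above the controls, and -0.43 ± 0.10 (SE, adjusted p = 0.12) for Slc5a2, wholly below. Its sum ran from 429.7 to 594.2 in controls and from 486.2 to 606.6 in NEKO kidneys. The other 7 lists had medians between -0.24 (thick ascending limb) and 0.71 (erythroid).

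Several of these lists had their wider differences in males, as Gpx2 and Cat did, but not all kept 1 sign in both sexes. The median change was 0.35 in females and 2.12 in males for urothelium, and 0.46 and 2.81 for neutrophil. The neutrophil medians are the values of S100a9. Collecting duct had -0.57 and -0.95, the distal convoluted tubule -0.27 and -1.43, the thick ascending limb -0.02 and -0.46 and podocytes 0.14 and 0.21. Medians were below 0 in females and above 0 in males for fibroblast (-0.33 and 1.48), macrophage (-0.35 and 0.42) and lymphocyte (-0.23 and 0.54). The same held for smooth muscle (-0.25 and 0.61) and tubular injury (-0.17 and 0.55). The erythroid list had its wider difference in females, with 0.99 in females and 0.44 in males, as did the proximal tubule list, with 0.11 and 0.04. Upk2 changed by 0.35 in females and by 3.24 in males (adjusted p = 0.00519 within males), with an adjusted p of 0.0907 for the difference between the sexes. The part of these cell types in the changes of Gpx2 and Cat, and in their excess in males, was not tested.

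The genes whose log2 values over the 8 arrays were most like those of an enzyme were found among 13521 named genes by Pearson's r, as a description over arrays that share genotype, sex and slide. For Gpx2 they were Adh7 (r = 0.994), Ugt2b35 (r = 0.994) and Tmem74 (r = 0.992). Adh7, an alcohol dehydrogenase, was well above background in all 4 NEKO kidneys and in no control, and was at least 6.87-fold higher in NEKO. Ugt2b35, a glucuronosyltransferase, was likewise not well above background in any control and at least 134-fold higher, and Tmem74 at least 3.04-fold. These bounds set the mean of the NEKO arrays against the lowest signal that counted as detected on each control array, or the probe's own signal where higher. All 3 genes passed the filter on dim probes only through the NEKO arrays, and their r rests on control values at background.

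For Cat the nearest were Clec4d (r = 0.996), Pgd (r = 0.991) and Tmem205 (r = 0.989). Clec4d, a C-type lectin of myeloid cells, was not well above background in any control and at least 6.02-fold higher in NEKO, and it too passed the filter only through the NEKO arrays. Pgd, an NADPH-making enzyme of the pentose phosphate pathway, changed by 1.70 ± 0.32 (SE, adjusted p = 0.0796). For Gpx3, whose groups overlapped, the nearest were Ank3 (r = 0.967), Znhit1 (r = 0.945) and Adam6b (r = 0.941), none of them with a change beyond 0.12 in size.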

How the data were processed

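The authors deposited, for each of 8 arrays, Agilent Feature Extraction (10.7.3.1, per the file headers) output with intensity values per spot, in which the processed signal is background-subtracted and not scaled between arrays. A deposited matrix holds log2 values of the same arrays, centred for each probe, and matched recomputed values within 0.01. No array normalization is given in the sources used here.

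Outlier spots were left out (73 to 172 of 43379 an array), spots of a probe were averaged on the log2 scale, and each array's 75th percentile over non-control probes was subtracted. Kept probes had to exceed background clearly on 4 or more of the 8 arrays, with no more than 2 values missing, and the brightest one stood for its gene. Names came from RefSeq (GRCm38.p6) through transcript accessions: 26682 of 41174 probes matched. The array's own annotation is on mm9, and no array coordinates are given.

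NEKO and control mice were compared with limma 3.58.1 in R 4.3.3 (lmFit, eBayes), with sex, which is also slide, as a term, and Benjamini-Hochberg adjustment over all 19600 tested. A call is an adjusted p under 0.05. Within-sex effects and the interaction came from a second model. Per the labels each array is a separate mouse. The fit was tested on simulated data.

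The enzymes, lists and tests were chosen with earlier results of these data known. Named are all 10 enzymes, the called or otherwise the 2 most changed genes of each list described singly, Keap1, Nqo1 and the 3 genes most like Gpx2, Gpx3 and Cat. Kidney markers of the tissue check, Slc5a2, Aqp3, Scnn1b, Mpo, Maob, Srxn1, Prdx3, Prdx6, Ccs, Slc7a11, Upk1a and genes with no kept probe were named after their values were seen.

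Alternatives were a normexp correction (offset 50, on the median signal), quantile normalization, scaling to the median of probes detected on all arrays, no filter or detection on all 8 arrays, the mean of kept probes, no sex term, averaging over the sexes in the interaction model, a robust eBayes with a trend, weighted arrays, the methods' unpaired comparison for unequal variances, the deposited matrix and leaving out each mouse.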

Additional observations from a re-analysis of the deposited data

How the results depend on the processing

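Of the 10 enzymes, 1 was called as reported. The count was 2 when averaged over the sexes in an interaction model, 3 in the methods' unpaired comparison unadjusted (Gpx2, Cat and Sod2) and 0 with adjustment, 0 at an adjusted p under 0.01, and between 0 and 1 with each mouse left out, 0 only without control replicate 7. Every other setting gave 1. For the interaction, 0 were called as reported and 1 (Gpx2) with the normexp correction or with eBayes with a trend and robust, and 1 (Gpx1) was called between the sexes in the latter. Groups did not overlap for 3 of the 10 under normexp (9.52% of all tested) and under quantile normalization (9.66% of all tested). With each mouse left out the count was 2 to 3. The share of all tested was not computed for those smaller groups, so that count has no background to be set against.

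No enzyme whose sign turned was called. Gpx3 was 0.0071 under quantile normalization, Gpx7 -0.025 with array weights, and with a mouse left out Gpx7 ran from -0.20 to 0.14 and Gpx8 from -0.12 to 0.06. Specifically, Gpx8 was 0.02 without replicate 1, 0.059 without 3, 0.02 without 7 and 0.00 without 8, and Gpx7 was -0.20 without 4 and -0.17 without 6. Within females Gpx4 was -0.049 and Gpx7 -0.44, and within males Gpx8 was 0.13 and Sod3 -0.14. Of 230 values of an enzyme under an alternative or within a sex, 212 kept direction and side of the threshold. The median change of all tested moved from -0.03 to -0.01 under quantile normalization and under normexp. The cause of these shifts was not tested. No paired analysis was possible because the replicate numbers run over both groups and none is shared. With 4 mice a group and 2 a sex, the number of arrays limits the precision.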
